A study of Mus musculus with 4 samples.

Results

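*Hoxb2*, *Hoxb3*, *Hoxb4*, *Hoxb5*, *Hoxb6*, *Hoxb7* and *Hoxb8* are 7 neighbouring genes of the mouse *Hoxb* cluster, taken by name from the 28692 genes listed in the count tables. Their transcripts were counted by droplet single-cell RNA-seq (scRNA-seq) in stromal cells of the E12.5 mouse intestine, in 2 libraries from small intestine (SI) and 2 from large intestine (LI) with the cecum. All embryos were untreated offspring of EYFP males (C57BL/6 background) and C57BL/6Nrj females, in which yellow fluorescent protein is expressed ubiquitously, and 3 to 5 embryos were pooled in each of the independent experiments. Before sequencing, live YFP+ Itgb1+ cells were sorted that lacked the surface markers CD45, Ter119, CD31 and EpCAM, so blood, endothelial and epithelial cells were gated out and the marker Itgb1 was required. Some labels of these samples speak of adult animals or of the colon, and the stage and region used here follow the sample titles. The labels do not say whether an SI and an LI library with the same number came from the same experiment, nor which library was made with a 3′ and which with a 5′ kit, so the kit and the region cannot be told apart. With 2 libraries of pooled embryos per region, p-values measure the spread between these libraries.

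*Hox* genes encode homeodomain transcription factors that give cells their position along the head-to-tail axis of the embryo. They lie in clusters, and within a cluster the order of the genes on the chromosome follows the order of their front expression limits along the body, a property named colinearity. In the gut the visceral mesoderm and the neural crest cells that enter it both express nested sets of these genes, and retinoic acid, Cdx factors and the Polycomb and trithorax groups are known regulators of the clusters. Partner proteins of the TALE family, such as Pbx and Meis, bind DNA together with Hox proteins.

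The 7 genes spanned 72108 bases on chromosome 11 (96281905 to 96354012, GRCm38, plus strand) in the order *Hoxb8*, *Hoxb7*, *Hoxb6*, *Hoxb5*, *Hoxb4*, *Hoxb3*, *Hoxb2*. *Hoxb9* lay next to *Hoxb8* and *Hoxb1* next to *Hoxb2*. No member shared exon bases with another gene on the same strand. On the opposite strand, *Hoxb3os* overlapped 953 exon bases of *Hoxb2* and 2250 of *Hoxb3*, and *Hoxb5os* overlapped 100 of *Hoxb5*. The strand setting of the counting is not given in the sources used here.

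In the table of RefSeq promoter windows used here (GRCm38.p6), 2 of the 7 genes were matched, *Hoxb4* and *Hoxb8*, and windows of the other 5 were not analysed here. They are printed to show the letters next to the starts of a middle gene and of the last gene of the set, whose levels in SI and LI are described below. The 250 bases before *Hoxb4* were chr11:96318017-96318266 and those before *Hoxb8* chr11:96281655-96281904, both on the plus strand and both outside any annotated exon. Capitals mark matches to the searched motifs on either strand, which were AGGTCA (a nuclear receptor half-site), TTTATG (a Cdx motif), TGATNNAT (a Hox with Pbx motif) and TGACAG (a Meis motif).
Hoxb4: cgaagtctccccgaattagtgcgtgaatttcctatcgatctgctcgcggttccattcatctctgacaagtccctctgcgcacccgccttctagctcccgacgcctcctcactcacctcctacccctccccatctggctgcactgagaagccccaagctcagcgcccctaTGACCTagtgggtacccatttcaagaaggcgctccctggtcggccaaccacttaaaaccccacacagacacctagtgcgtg
Hoxb8: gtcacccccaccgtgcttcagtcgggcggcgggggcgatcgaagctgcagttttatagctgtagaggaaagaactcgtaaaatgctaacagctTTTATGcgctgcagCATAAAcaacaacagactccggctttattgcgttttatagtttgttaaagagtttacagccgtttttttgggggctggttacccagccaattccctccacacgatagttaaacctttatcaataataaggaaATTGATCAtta
The *Hoxb4* window held 1 match, to AGGTCA on the minus strand, whose first base lay 81 bases before the start. The *Hoxb8* window held TTTATG on the plus strand at 157 bases and on the minus strand at 143 bases, and TGATNNAT on the minus strand at 11 bases before the start. No further match lay in these windows, and the matches did not overlap each other. Among 32851 promoter windows of the same length, 14.02% held AGGTCA, 10.8% TTTATG, 7.68% TGATNNAT and 15.9% TGACAG. A match describes letters and does not show binding.

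After filtering, 22094 cells with 4603 to 6247 per library were kept. Before filtering, the 4 libraries held 31630548 to 62886525 unique molecular identifiers (UMIs, each standing for 1 captured transcript). LI replicate 1 was the shallowest, whose kept cells had a median of 4221 UMIs against 8382 to 8829 in the other libraries, and pairs of libraries shared 8 to 15 barcodes. Cells were placed in 4 groups from markers, with the *Hox* genes left out of the clustering. Left out were 181 cells of a cluster led by blood and liver genes and 135 of a cluster led by *Foxd1*. The groups were 1313 mesothelial-like cells, which form the outer lining of the gut, 4688 smooth muscle (SMC)-like cells, 1246 neural-like cells of the enteric nervous system, and 14531 cells of other mesenchyme. Of cells thinned to 3000 UMIs, the collagen gene *Col3a1* was detected in 76.6% to 90.9% of other mesenchyme cells and in 3.07% to 6.54% of neural-like cells. The 5 clusters of other mesenchyme carried mesenchyme markers, but clusters 3 and 6 also had a pericyte marker and cluster 4 an epithelial marker among their leading genes, so results for this group are given with and without them. Levels are given as CPM, the UMIs of a gene summed over the cells of a group in a library and scaled to the total UMIs of that sum. Since they are not scaled by gene length, each gene is compared with itself only.

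In other mesenchyme all 7 genes were higher in SI than in LI, by 2.39-fold (*Hoxb3*) to 7.96-fold (*Hoxb6*) in mean CPM. The edgeR quasi-likelihood test called 7 of 7 as higher in SI (Benjamini-Hochberg adjusted over 14034 genes, threshold 0.05), against 1.14% of all genes called higher and 2.73% called lower. Among the genes called, 29.5% were higher in SI, and 58.6% were without LI replicate 2. The median log2 fold change of the 7 was 2.44, and that of all genes tested was 0.01. Their CPM did not overlap between the regions, nor did those of 52.6% of all genes tested.

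*Hoxb2* and *Hoxb3*, which pattern the hindbrain, were the members at the front end of the set. *Hoxb2* stood at 24.2 and 62.3 CPM in the first and second LI library and at 203 and 124 CPM in the first and second SI library, the order kept throughout. LI replicate 2 was 2.58-fold above LI replicate 1, the widest gap between replicates among the members in other mesenchyme, and still below both SI libraries. In the fit SI exceeded LI by a log2 fold change of 2.09 ± 0.42 (SE, n = 2 libraries per region, edgeR adjusted p = 0.037). Without LI replicate 2 the log2 fold was 2.87, and DESeq2's Wald test missed the threshold for this gene (adjusted p = 0.057). *Hoxb3* stood at 17.1 and 24.8 CPM in LI and at 50.8 and 49.2 CPM in SI, with the smallest log2 fold change of the set, 1.42 ± 0.21 (edgeR adjusted p = 0.012). *Hoxb4*, known for its part in blood stem cells, stood at 25.7 and 32.9 CPM in LI and at 142 and 111 CPM in SI. Its log2 fold change was 2.28 ± 0.21 (edgeR adjusted p = 0.0015), and the lower SI library was 3.39-fold above the higher LI library.

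The members at the *Hoxb9* side had the larger log2 fold changes, from 2.44 to 3.15, against 1.42 to 2.28 for *Hoxb2* to *Hoxb4*. *Hoxb5*, a gene needed for neural crest cells to colonise the gut normally, stood at 4.32 and 7.02 CPM in LI and at 29.9 and 25.4 CPM in SI, with a log2 fold change of 2.44 ± 0.25 (edgeR adjusted p = 0.0024). *Hoxb6*, expressed in lateral plate mesoderm, stood at 4.06 and 6.23 CPM in LI and at 45.9 and 36.0 CPM in SI, with a log2 fold change of 3.15 ± 0.26 (edgeR adjusted p = 0.0011). Both genes were at least 3.62-fold higher in each SI library than in each LI library. *Hoxb7*, whose promoter is widely used to mark the ureteric bud, stood at 5.19 and 5.23 CPM in LI and at 39.6 and 33.1 CPM in SI. *Hoxb8*, which also acts in myeloid cells, stood at 5.30 and 4.97 CPM in LI and at 43.3 and 37.8 CPM in SI. For these last genes of the set the LI replicates were nearly equal, and the log2 fold changes were 2.96 ± 0.21 (*Hoxb7*, edgeR adjusted p = 0.00049) and 3.15 ± 0.21 (*Hoxb8*, edgeR adjusted p = 0.00037).

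**Figure D1:**
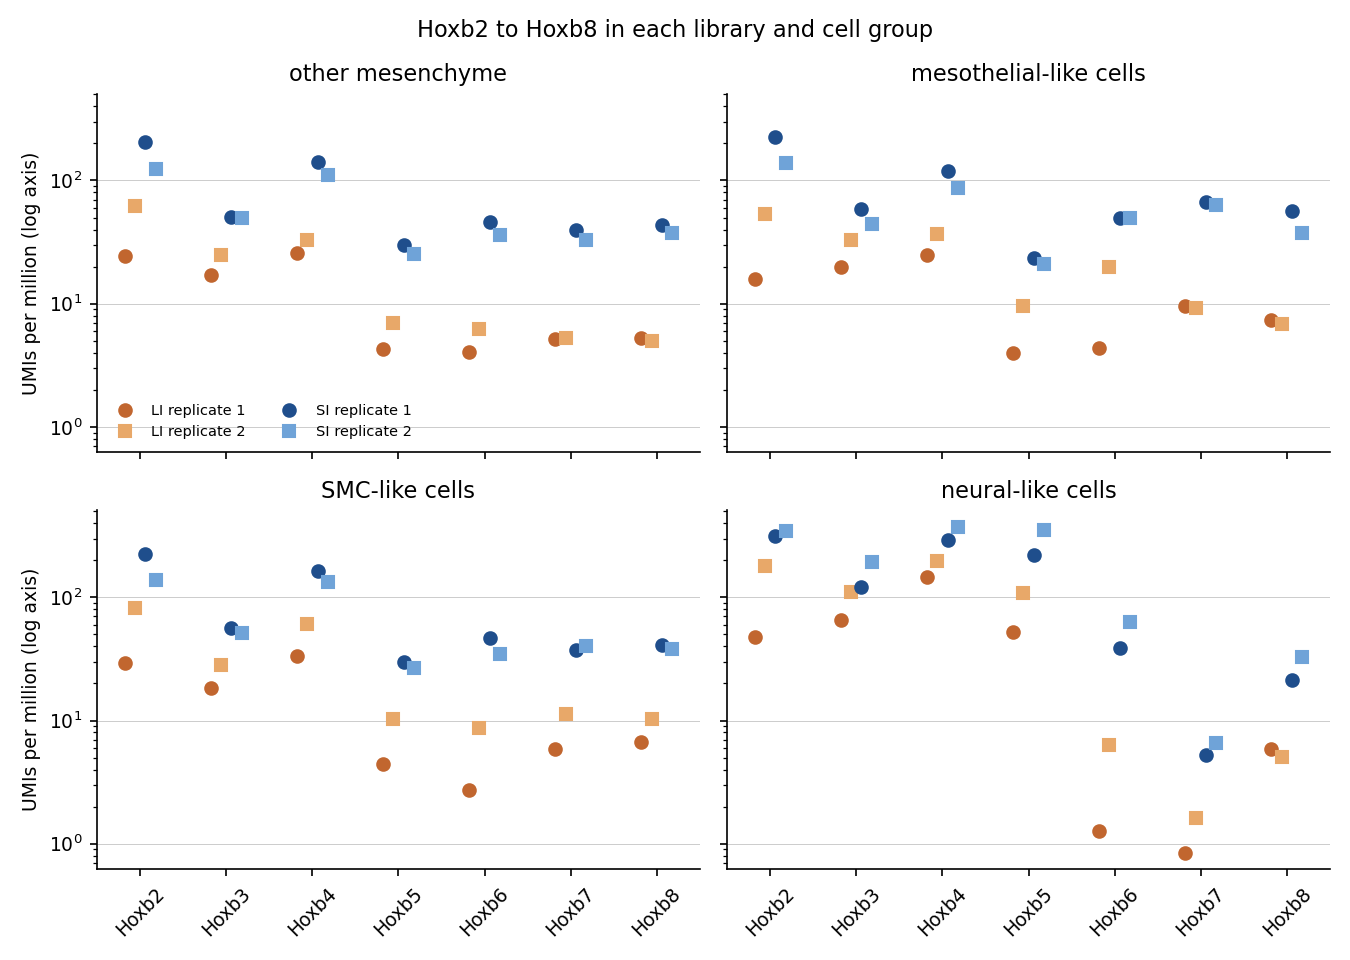
Level of each gene in each library, in CPM of summed UMIs on a log axis, by cell group, with LI libraries in orange and SI libraries in blue. Within every cell group both SI libraries lie above both LI libraries for each of the 7 genes, closest for *Hoxb3* in neural-like cells (109.6 CPM in LI replicate 2 and 120.5 CPM in SI replicate 1).

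The clusters that make up other mesenchyme gave the same direction one by one. In cluster 0, the largest (6921 cells, led by *Igfbp5* and *Pitx1*), 7 of 7 were called higher in SI (1.99% of all genes), as were 7 of 7 in cluster 2 (2818 cells, led by histone genes, 1.13% of all genes) and 7 of 7 in cluster 3 (2184 cells, 1.04% of all genes). In cluster 4 (1340 cells) 6 of 7 were called, all but *Hoxb2* (0.614% of all genes). In cluster 6 (1268 cells, led by *Wnt4*), 4 of 7 were called, namely *Hoxb4*, *Hoxb6*, *Hoxb7* and *Hoxb8* (0.0864% of all genes). *Hoxb2* in cluster 6 stood at 23.7 and 77.2 CPM in LI and at 107.6 and 92.5 CPM in SI, its narrowest gap among the 5 clusters. With clusters 0 and 2 alone, which had no marker of another class, 7 of 7 were called as well.

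Markers of other cell types moved with region in this group too. The summed level of the SMC markers in other mesenchyme was 740 and 1064 CPM in LI and 1222 and 2153 CPM in SI, and that of the pericyte markers was 19.2 and 31.6 CPM in LI and 43.4 and 108.3 CPM in SI. Neural markers summed to 51.7 and 78.2 CPM in LI and 124.0 and 165.3 CPM in SI, against 3166 to 4710 CPM in neural-like cells. Mesothelial markers went the other way, from 126 and 59.5 CPM in LI to 43.4 and 25.5 CPM in SI. Of these lists 3 of 9 tested SMC markers, 2 of 4 pericyte markers and 3 of 11 neural markers were called higher in SI, and 1 SMC marker lower. Marker levels moved in the other groups as well. In neural-like cells the fibroblast markers summed to 2154 and 1988 CPM in LI and to 1316 and 1094 CPM in SI, and the neural markers to 3166 and 3912 CPM in LI and 4374 and 4710 CPM in SI. In mesothelial-like cells the SMC markers summed to 747 and 506 CPM in LI and 339 and 427 CPM in SI, while their own markers stood between 2374 and 2642 CPM. Fibroblast markers in mesothelial-like cells summed to 2230 and 3302 CPM in LI and 3314 and 4279 CPM in SI, and 2 of 11 tested were called higher in SI. The part of these markers in the levels of the *Hoxb* genes was not tested.

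In mesothelial-like cells 6 of 7 genes were called higher in SI, against 0.526% of all genes, and *Hoxb3* did not pass. *Hoxb2* stood at 16 and 53.5 CPM in LI and at 226 and 138 CPM in SI, with a log2 fold change of 2.48 ± 0.41 (edgeR adjusted p = 0.012). *Hoxb3*, the member that missed the threshold, stood at 20.0 and 32.7 CPM in LI and at 58.8 and 44.0 CPM in SI (fitted log2 fold 1.04 ± 0.28, edgeR adjusted p = 0.13). *Hoxb4* stood at 25.0 and 36.7 CPM in LI and at 119 and 86.7 CPM in SI, with a log2 fold change of 1.81 ± 0.26 (edgeR adjusted p = 0.0057). The value of *Hoxb2* was 3.55 without LI replicate 2 and 1.86 without LI replicate 1, and that of *Hoxb3* was 1.40 without LI replicate 2. All 7 genes had both SI libraries above both LI libraries, as 41.6% of all genes had their regions apart.

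The remaining members split by how far the LI libraries stood apart in mesothelial-like cells. *Hoxb5* stood at 4.0 and 9.58 CPM in LI and at 23.5 and 21.0 CPM in SI (fitted log2 fold 1.80 ± 0.39, edgeR adjusted p = 0.049). *Hoxb6* stood at 4.33 and 20.0 CPM in LI and at 49.3 and 49.7 CPM in SI (fitted log2 fold 2.13 ± 0.45, edgeR adjusted p = 0.044). Both were close to the threshold, and LI replicate 2 was above LI replicate 1 in each. *Hoxb5* lost its call when LI replicate 1 (1.31) or SI replicate 1 (1.72) was left out, and was 2.50 without LI replicate 2. The stricter cell filter ended the calls of *Hoxb5* (1.59, edgeR adjusted p = 0.12) and *Hoxb6* (2.36, edgeR adjusted p = 0.080), and sums thinned to equal totals that of *Hoxb5* (1.54, edgeR adjusted p = 0.15). *Hoxb6* was 3.53 without LI replicate 2 and 1.39 without LI replicate 1. *Hoxb7* stood at 9.67 and 9.18 CPM in LI and at 66.9 and 63.7 CPM in SI, with the largest log2 fold change in these cells, 2.84 ± 0.27 (edgeR adjusted p = 0.00025). *Hoxb8* stood at 7.33 and 6.79 CPM in LI and at 57 and 37.6 CPM in SI (fitted log2 fold 2.80 ± 0.32, edgeR adjusted p = 0.0013). DESeq2's Wald test called 3 of the 7 in mesothelial-like cells.

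In SMC-like cells 6 of 7 genes were called higher in SI, against 0.426% of all genes, and *Hoxb2* did not pass. Here *Hoxb2* stood at 29.3 and 82.6 CPM in LI and at 225 and 138 CPM in SI (fitted log2 fold 1.82 ± 0.43, edgeR adjusted p = 0.11). *Hoxb3* stood at 18.2 and 28.1 CPM in LI and at 56.1 and 51.1 CPM in SI (1.34 ± 0.24, edgeR adjusted p = 0.041), and *Hoxb4* at 33.7 and 60.9 CPM in LI and at 164 and 132 CPM in SI (1.78 ± 0.28, edgeR adjusted p = 0.023). The stricter cell filter ended the call of *Hoxb3* (1.27, edgeR adjusted p = 0.057). LI replicate 1 stood apart on the markers of this group, with SMC markers summing to 1352 CPM against 5465 CPM in LI replicate 2 and 4809 and 10147 CPM in SI, and with *Actg2* in 20.1% of thinned cells against 59.2%, 66.7% and 87.1%. Neural markers in SMC-like cells also moved with region, from 38.6 and 126 CPM in LI to 195 and 277 CPM in SI, and mesothelial markers went the other way, from 120 and 37.7 CPM in LI to 22.8 and 10.4 CPM in SI. The part of these markers was not tested, and without LI replicate 1 the log2 folds of the 7 genes were 1.07 to 2.37. LI replicate 2 lay above LI replicate 1 for each of the 7 genes in SMC-like cells. The log2 fold of *Hoxb2* ranged from 1.28 to 2.77 when 1 of the 4 libraries was left out. *Hoxb5* stood at 4.43 and 10.2 CPM in LI and at 29.7 and 26.9 CPM in SI (2.03 ± 0.33, edgeR adjusted p = 0.028). *Hoxb6* stood at 2.71 and 8.68 CPM in LI and at 46.8 and 34.8 CPM in SI, the largest log2 fold change in SMC-like cells, 2.88 ± 0.41 (edgeR adjusted p = 0.017). *Hoxb7* and *Hoxb8* followed with 5.90 and 11.3 CPM and with 6.64 and 10.2 CPM in LI. In SI they reached 37.1 and 40.1 CPM (*Hoxb7*, 2.26 ± 0.29, edgeR adjusted p = 0.011) and 40.7 and 37.8 CPM (*Hoxb8*, 2.33 ± 0.25, edgeR adjusted p = 0.0047). All 7 had their regions apart, as 46.8% of all genes did. Without LI replicate 2 the log2 folds were larger, at 2.81 for *Hoxb5*, 4.04 for *Hoxb6* and 2.85 for *Hoxb7*. The median log2 fold change of the 7 was 2.13 in mesothelial-like, 2.03 in SMC-like and 1.75 in neural-like cells, against -0.004, 0.005 and -0.003 for all genes tested.

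In neural-like cells 2 of 7 genes, *Hoxb6* and *Hoxb8*, were called higher in SI, against 0.106% of all genes. *Hoxb6* stood at 1.27 and 6.28 CPM in LI and at 38.9 and 62.8 CPM in SI (fitted log2 fold 3.44 ± 0.43, edgeR adjusted p = 0.015), and the lowest of these values rested on 3 UMIs. *Hoxb8* stood at 5.91 and 5.02 CPM in LI and at 21.5 and 33.0 CPM in SI (2.29 ± 0.32, edgeR adjusted p = 0.026). Its call was lost with the cluster of neural progenitors alone, described below (2.11, edgeR adjusted p = 0.12). *Hoxb5* stood at 51.9 and 108.9 CPM in LI and at 219.9 and 352 CPM in SI, and narrowly missed the threshold (1.75 ± 0.32, edgeR adjusted p = 0.07). The fit for neural-like cells depended on single libraries, since without SI replicate 2 it called 0 of 7, without SI replicate 1 it called 4, without LI replicate 1 it called 6 and without LI replicate 2 it called 7, with *Hoxb6* at 5.18.

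The members at the front end missed the threshold in neural-like cells. *Hoxb2* stood at 47.7 and 179 CPM in neural-like cells of LI and at 313 and 344 CPM in those of SI (1.46 ± 0.43, edgeR adjusted p = 0.27). *Hoxb3* stood at 65.5 and 109.6 CPM in LI and at 120.5 and 194 CPM in SI (0.77 ± 0.28, edgeR adjusted p = 0.43), and *Hoxb4* at 147 and 199 CPM in LI and at 291 and 375 CPM in SI (0.88 ± 0.21, edgeR adjusted p = 0.15). For each of them both SI libraries were above both LI libraries, and 38.9% of all genes likewise had their regions apart. *Hoxb7* was rare, with 0.845 and 1.62 CPM in LI and 5.21 and 6.61 CPM in SI (2.05 ± 0.46, edgeR adjusted p = 0.13).

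**Figure D2:**
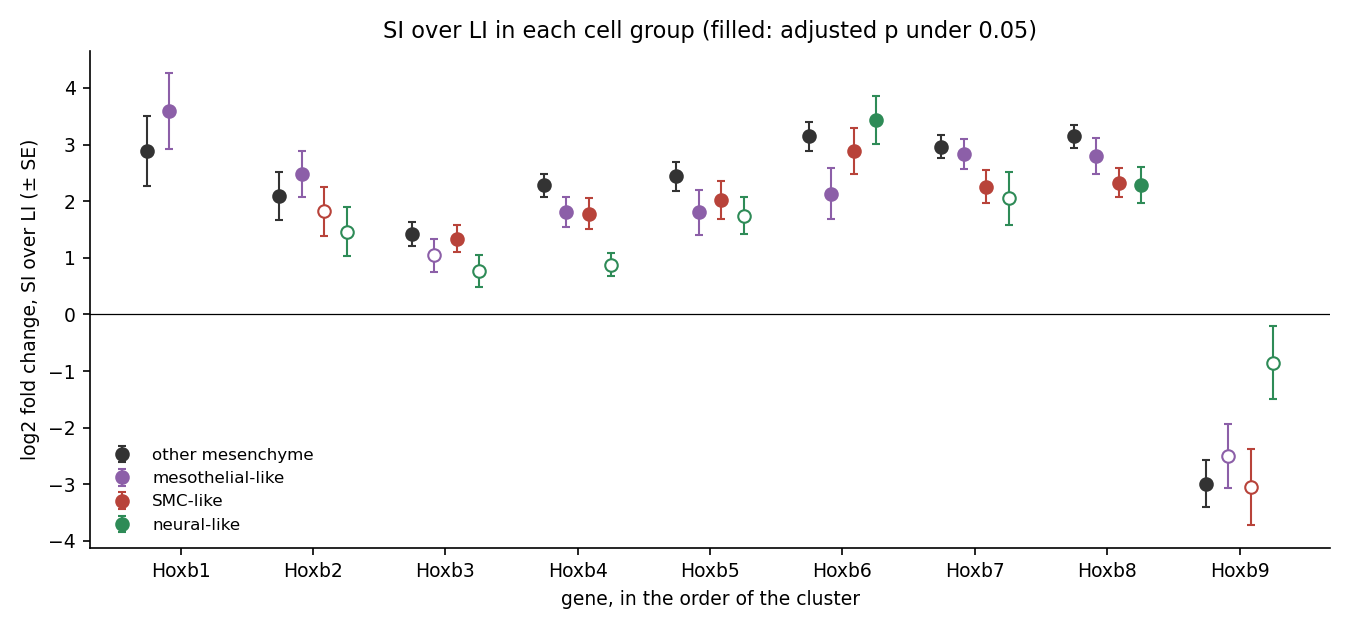
Fitted log2 fold change of SI over LI for each gene in each cell group, with the neighbours *Hoxb1* and *Hoxb9* where tested, with bars for ± 1 SE and filled points for an edgeR adjusted p under 0.05. All 28 values of *Hoxb2* to *Hoxb8* lie above 0, and 7, 6, 6 and 2 of 7 genes pass in other mesenchyme, mesothelial-like, SMC-like and neural-like cells.

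Whether the SI over LI difference itself changed with the cell group was tested as an interaction against other mesenchyme. For neural-like cells 2 of 7 were called, against 12.46% of all genes, and both had a smaller SI over LI fold in neural-like cells. *Hoxb4* had a log2 interaction term of -1.36 ± 0.17 (edgeR adjusted p = 0.00018), and it was called under every alternative run for it. *Hoxb3* had -0.63 ± 0.19 (edgeR adjusted p = 0.044) and lost the call without SI replicate 1, where the value was -0.30. For mesothelial-like cells 1 of 7 was called, against 5.73% of all genes, namely *Hoxb6* with -1.04 ± 0.30 (edgeR adjusted p = 0.036). That call was lost without SI replicate 1 (-0.83) and without LI replicate 2 (0.06), the library with 20.0 CPM of *Hoxb6* in mesothelial-like cells. For SMC-like cells 0 of 7 were called by edgeR, with 0.78% of all genes called. These were 106 genes, and the count was 3 without LI replicate 1, 12 without LI replicate 2 and 438 without SI replicate 1. The smallest adjusted p there was 0.16 (*Hoxb8*), and DESeq2's Wald test also called 0.

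Between cell groups of the same libraries, neural-like cells differed most from other mesenchyme. With the library as a block, 5 of 7 genes were called, against 48.4% of all genes in either direction, and the members went in both directions. *Hoxb5* was higher in neural-like cells by 3.57 ± 0.20 on the log2 scale (edgeR adjusted p = 1.4e-05), from 4.32 to 29.9 CPM in the other mesenchyme libraries to 51.9 to 352 CPM in the neural-like ones. *Hoxb4* was higher by 2.00 ± 0.29 (edgeR adjusted p = 0.0013), *Hoxb3* by 1.86 ± 0.17 (edgeR adjusted p = 0.00013) and *Hoxb2* by 1.20 ± 0.17 (edgeR adjusted p = 0.0011). *Hoxb7* went the other way with -2.46 ± 0.22 (edgeR adjusted p = 0.00012), from 5.19 to 39.6 CPM in other mesenchyme to 0.845 to 6.61 CPM in neural-like cells. *Hoxb6* (0.10 ± 0.24, edgeR adjusted p = 0.76) and *Hoxb8* (-0.36 ± 0.22, edgeR adjusted p = 0.21) did not pass with both neural clusters together, and with the progenitors alone both were called lower than in other mesenchyme.

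Fewer members were called in the other groups. In mesothelial-like cells only *Hoxb7* was called of the 7, against 38.3% of all genes in either direction, with a log2 difference of 0.82 ± 0.11 (edgeR adjusted p = 0.00042). It was higher in the mesothelial-like sum in each library, for example 63.7 CPM against 33.1 CPM in SI replicate 2. In SMC-like cells 2 of 7 were called, against 20.6% of all genes in either direction, and both were higher there. These were *Hoxb4* with 0.43 ± 0.11 (edgeR adjusted p = 0.024) and *Hoxb2* with 0.26 ± 0.06 (edgeR adjusted p = 0.014), and without LI replicate 2 the *Hoxb2* call was lost at 0.19. The share of members called was below the background in mesothelial-like cells and near it in SMC-like cells.

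**Figure D3:**
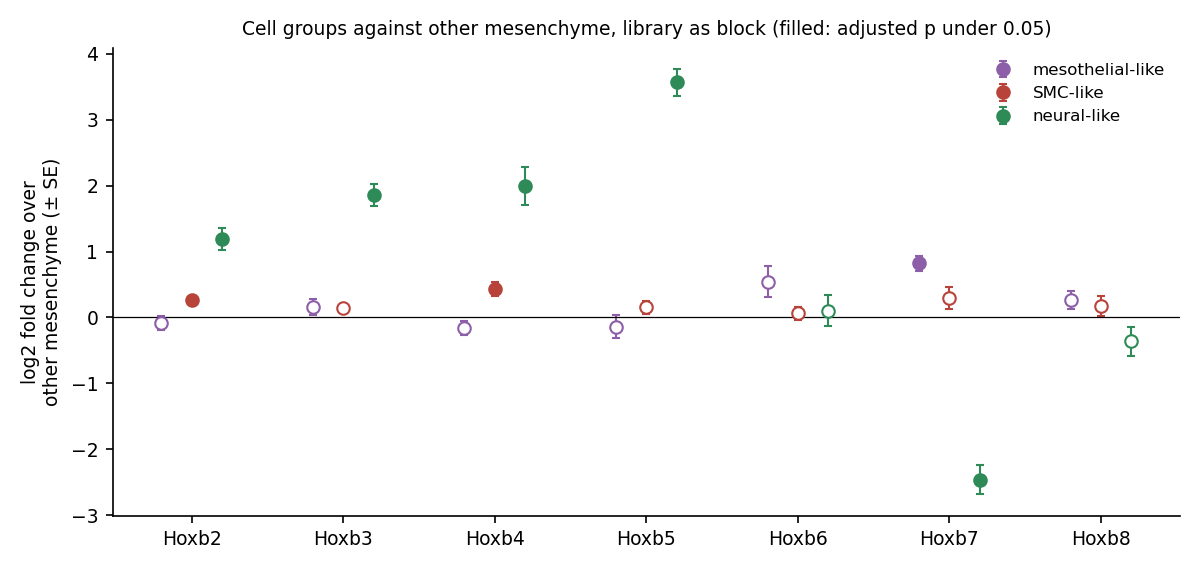
Fitted log2 difference of each gene between a cell group and other mesenchyme of the same libraries, with bars for ± 1 SE and filled points for an edgeR adjusted p under 0.05. *Hoxb2* to *Hoxb5* lie above 0 and *Hoxb7* below 0 in neural-like cells, whereas mesothelial-like and SMC-like values stay between -0.16 and 0.82.

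The neural-like group held 2 clusters. Each of the 7 genes had a higher CPM in the cluster of neurons than in that of progenitors in all 4 libraries, as did 33.2% of the 12973 genes with at least 10 UMIs in these sums. For *Hoxb6* this rested in LI replicate 1 on 2 UMIs in progenitors and 1 in neurons, and for *Hoxb7* on 0 and 2 UMIs in LI replicate 1 and on 6 and 3 in LI replicate 2, too few to order the clusters there. Cluster 7 (956 cells) was led by the progenitor genes *Foxd3* and *Sox10*, and cluster 8 (290 cells) by the neuronal genes *Cartpt*, *Stmn2* and *Tubb3*. These are values without a test, since cluster 8 held 44 and 56 cells in LI and 79 and 111 in SI. *Hoxb5* stood at 36.1 and 64.2 CPM in LI progenitors and 123 and 203 CPM in SI progenitors, and at 137 and 303 CPM in LI neurons and 560.5 and 807 CPM in SI neurons, 3.8-fold to 4.72-fold above the progenitors of the same library. *Hoxb6* stood at 10.6 and 23.1 CPM in SI progenitors and at 138 and 184 CPM in SI neurons, and *Hoxb8* at 8.37 and 12.7 CPM and at 67.6 and 95.3 CPM. The front members differed less, by 2.04-fold to 2.51-fold for *Hoxb4*, 1.30-fold to 1.80-fold for *Hoxb3* and 1.22-fold to 1.51-fold for *Hoxb2*. *Hoxb7* stayed low in both, at 0 to 2.19 CPM in progenitors and 2.88 to 20.1 CPM in neurons. With the progenitors alone in place of all neural-like cells, all 7 genes were called, as were 6194 of all 12592 genes tested. *Hoxb6* was lower than in other mesenchyme with a log2 difference of -1.34 (edgeR adjusted p = 0.0040), the reverse of the sign for both clusters together, and *Hoxb8* with -1.68 (edgeR adjusted p = 0.0016).

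**Figure D4:**
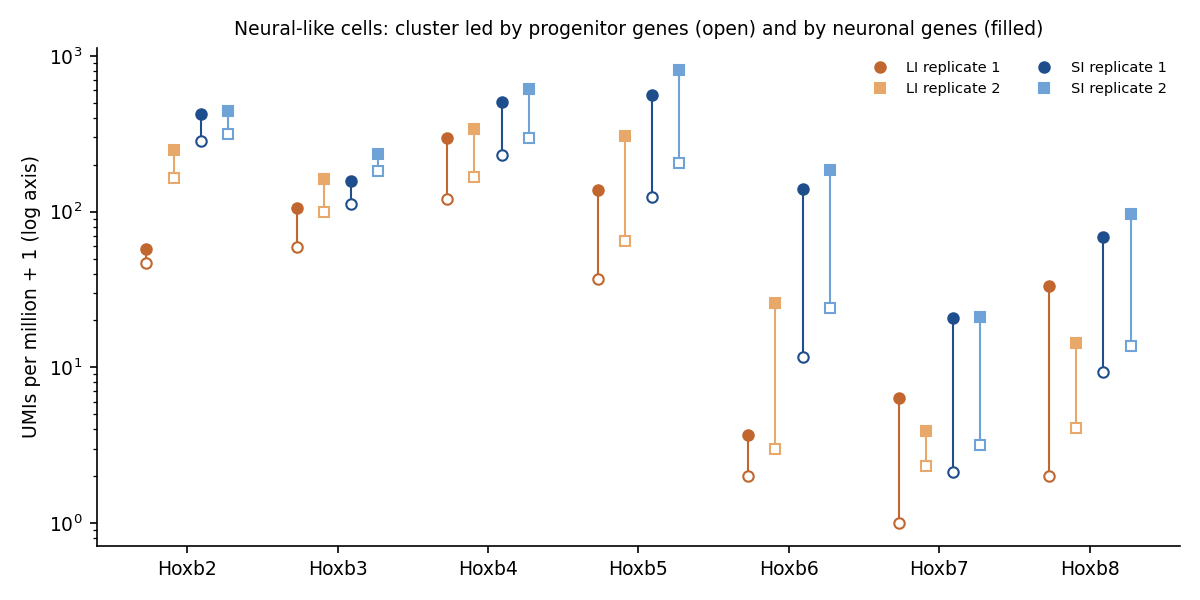
Level of each gene in neural progenitors (cluster 7) and neurons (cluster 8) of each library, as open and filled points joined by a line, in CPM + 1 on a log axis. The neuron value lies above the progenitor value for each gene in each of the 4 libraries, on 6 UMIs or fewer per sum for *Hoxb6* in LI replicate 1 and *Hoxb7* in LI, and the gap is 3.8-fold to 4.72-fold for *Hoxb5* against 1.22-fold to 1.51-fold for *Hoxb2*.

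The share of cells with at least 1 UMI was compared after thinning each cell to 3000 UMIs and leaving out 810, 112, 39 and 54 shallower cells of other mesenchyme in these libraries, LI first. In other mesenchyme *Hoxb2* was detected in 6.67% (Wilson 95% interval 5.90 to 7.54) and 14.6% (13.4 to 15.9) of LI cells and in 43.4% (41.7 to 45.1) and 29.2% (27.8 to 30.7) of SI cells. Unthinned, the same shares were 9.57%, 33.2%, 75.7% and 58.8%, each above its thinned value. *Hoxb8* was detected in 1.46% (1.11 to 1.91) and 0.940% (0.655 to 1.35) of LI cells and in 12.1% (11.1 to 13.3) and 10.4% (9.43 to 11.4) of SI cells. The intervals cover counting error only. For all 7 genes both SI shares lay above both LI shares in other mesenchyme, mesothelial-like and SMC-like cells, as they did for 13.7%, 16.5% and 12.2% of the genes detected in at least 1% of cells of a library, with no test. In neural-like cells they did so for all 7 genes in 1 draw of UMIs and for 6 in another, against 20.5% of such genes.

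In neural-like cells *Hoxb5* was detected in 15.6% (11.3 to 21.0) and 23.4% (18.6 to 28.9) of LI cells and in 39.8% (34.6 to 45.3) and 57.9% (53.2 to 62.5) of SI cells. These shares were above those of *Hoxb5* in every other group and library, where the highest was 7.97%. *Hoxb7* was detected in 0.383% to 1.57% of neural-like cells, against 1.54% and 1.59% of other mesenchyme cells in LI and 10.4% and 8.82% in SI. In LI the shares of *Hoxb6* (0.943% and 1.92%) and *Hoxb8* (1.42% and 2.30%) rested on 2 to 6 neural-like cells each, and in other mesenchyme they were 1.15% and 2.24% for *Hoxb6*. *Col3a1* was detected in 5.19% and 3.07% of neural-like cells in LI against 79.6% and 90.9% of other mesenchyme cells. Cluster 9, left out of the groups, was led by blood and liver genes and lay mostly in LI replicate 2 (162 of its 181 cells). It held 71.5 CPM of *Hoxb2* and 28.2 CPM of *Hoxb3* there, near the 62.3 and 24.8 CPM of other mesenchyme in that library, and *Col3a1* was detected in 80.1% of its cells. The part of free RNA or mixed droplets in the cluster 9 levels and in the low neural-like shares was not tested.

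**Figure D5:**
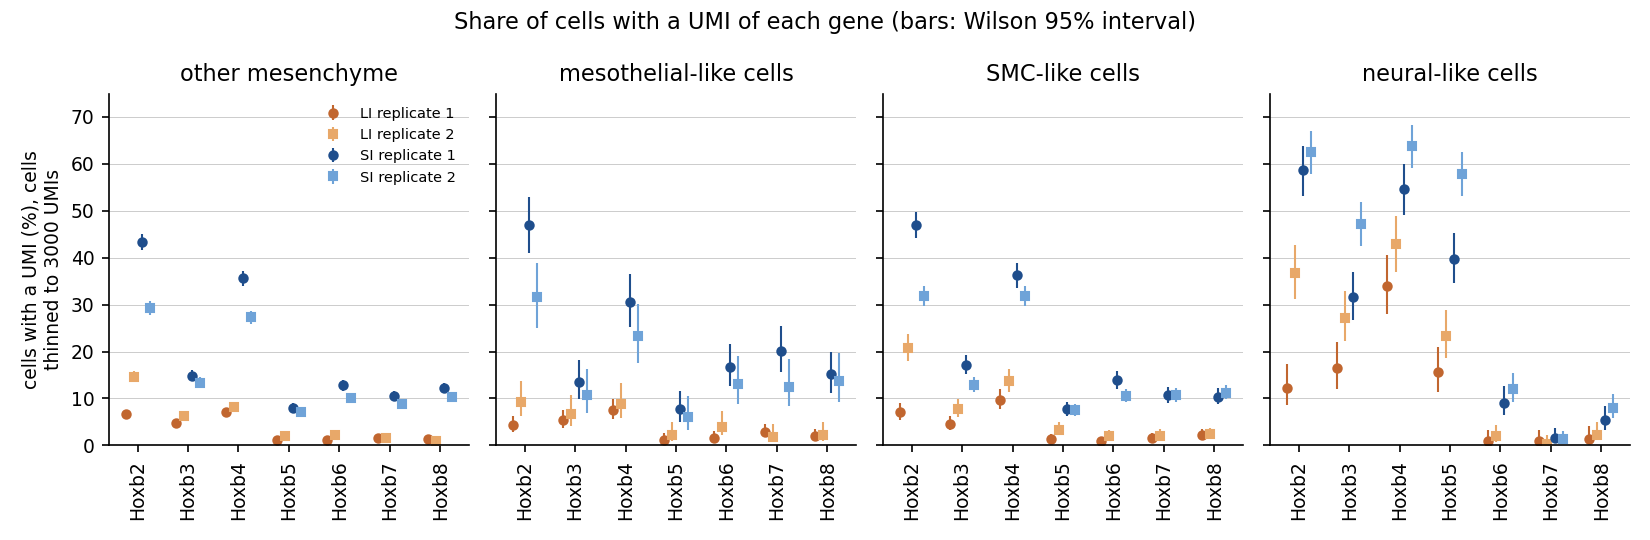
Percent of cells with at least 1 UMI of each gene after thinning to 3000 UMIs, by cell group and library, with Wilson 95% intervals. In other mesenchyme *Hoxb2* reaches 43.4% and 29.2% in SI against 6.67% and 14.6% in LI, and in neural-like cells *Hoxb5* reaches 57.9% in SI replicate 2.

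Counted per cell, SI cells held more of the 7 genes at once. Other mesenchyme cells thinned to 3000 UMIs had on average 0.239 and 0.357 of the 7 genes detected in LI and 1.37 and 1.06 in SI, and none at all in 79.4% and 71.5% of LI cells and in 20.7% and 32.0% of SI cells. Neural-like cells had 0.816 and 1.35 genes detected in LI and 2.01 and 2.53 in SI, the most of the 4 groups in each library. Mesothelial-like cells (0.248 and 0.350 in LI, 1.51 and 1.11 in SI) and SMC-like cells (0.273 and 0.517 in LI, 1.43 and 1.16 in SI) had fewer. The summed level of the 7 genes in other mesenchyme was 85.8 and 143.5 CPM in LI and 555.5 and 417 CPM in SI. LI replicate 2 was above LI replicate 1 and SI replicate 1 above SI replicate 2, and *Hoxb2* differed most between replicates in both regions.

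Among LI cells of other mesenchyme, those with a UMI of *Hoxa13*, *Hoxd12* or *Hoxd13*, genes of the hindgut end, were set beside those without. In LI replicate 1, *Hoxb2* was detected in 7.01% (Wilson 95% interval 3.96 to 12.1) of 157 cells with such a UMI and in 6.66% (5.87 to 7.55) of 3409 cells without. In LI replicate 2, it was detected in 24.5% (17.2 to 33.7) of 102 cells with and in 14.3% (13.1 to 15.6) of 2984 cells without. These intervals cover counting error over the cells of 1 library, and the difference was not tested. *Hoxb3* was detected in 7.64% of cells with such a UMI and 4.66% of those without in LI replicate 1, and in 9.80% and 6.17% in LI replicate 2. *Hoxb4* was detected in 8.28% and 6.98%, and in 12.7% and 7.94%. The differences of *Hoxb3* and *Hoxb4* were not tested either. The shares of *Hoxb5*, *Hoxb6*, *Hoxb7* and *Hoxb8* were 2.25% or lower in each set of cells.

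Of the flanking genes, *Hoxb9* went the other way and *Hoxb1* was higher in SI too. *Hoxb9*, the neighbour of *Hoxb8*, was lower in SI in other mesenchyme, at 8.28 and 7.15 CPM in LI and 0.463 and 1.26 CPM in SI (fitted log2 fold -2.99 ± 0.41, edgeR adjusted p = 0.0092). *Hoxb1*, the neighbour of *Hoxb2*, was rare, with 1 and 3 UMIs in LI and 18 and 17 in SI of other mesenchyme (2.88 ± 0.62, edgeR adjusted p = 0.047). In mesothelial-like cells *Hoxb1* reached 11.8 and 5.73 CPM in SI against 0.667 and 0.799 CPM in LI (3.59 ± 0.66, edgeR adjusted p = 0.022). *Hoxb13* had 0 UMIs in all 16 sums. The antisense RNAs *Hoxb3os* (0.43 ± 0.21, edgeR adjusted p = 0.34) and *Hoxb5os* (0.86 ± 0.26, edgeR adjusted p = 0.13) did not pass in other mesenchyme, where *Hoxb3os* stood at 5.91 to 8.28 CPM.

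Genes of the same paralogue groups in the other *Hox* clusters did not share 1 direction. In other mesenchyme 6 of 13 tested were called higher and 4 lower in SI, and in mesothelial-like, SMC-like and neural-like cells 3 of 11, 4 of 13 and 4 of 8 were called higher and 1, 3 and 0 lower. Of all genes in these 3 groups, 0.686%, 1.07% and 0.204% were called lower, beside the shares called higher given above. *Hoxc5* was higher in SI of other mesenchyme (3.45 and 4.14 CPM in LI, 29.8 and 22.9 CPM in SI, fitted log2 fold 2.95 ± 0.23, edgeR adjusted p = 0.0009). *Hoxd4* (52.4 and 48.0 CPM in LI, 2.78 and 2.25 CPM in SI, -4.16 ± 0.23, edgeR adjusted p = 0.0002), *Hoxd3* (-5.05 ± 0.32, edgeR adjusted p = 0.0004) and *Hoxd8* (-2.17 ± 0.20, edgeR adjusted p = 0.0014) were lower in SI. Counts of *Hoxd3* and *Hoxd4* are uncertain, as they share exon bases on the same strand, and *Hoxc5* shares 166 with *Hoxc10*.

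Of the retinoic acid and caudal genes, 2 of 13 were called higher and 1 lower in SI of other mesenchyme, against 1.14% and 2.73% of all genes. *Aldh1a2*, which makes retinoic acid, stood at 23.1 and 50.6 CPM in LI and at 334 and 252 CPM in SI (3.16 ± 0.35, edgeR adjusted p = 0.0034), and *Dhrs3*, which acts on retinal, was higher too (1.27 ± 0.23, edgeR adjusted p = 0.025). *Crabp2*, which carries retinoic acid, was lower in SI, at 34.5 and 67.9 CPM in LI and 9.20 and 7.74 CPM in SI (-2.43 ± 0.31, edgeR adjusted p = 0.0067). In SMC-like cells 2 of 11 were called higher and 1 lower, against 0.426% and 1.07% of all genes. In mesothelial-like (9 tested) and neural-like cells (10 tested) 0 were called. Of all genes there, 0.526% and 0.106% were called higher and 0.686% and 0.204% lower. Of the TALE partner genes 0 of 9, 8, 9 and 9 were called in other mesenchyme, mesothelial-like, SMC-like and neural-like cells, and of the Polycomb and trithorax genes 0 of 19, 18, 18 and 18. Of all genes, 3.87%, 1.21%, 1.5% and 0.31% were called in either direction in these groups. With shares this small, 0 calls in such short lists say little about their genes.

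Across the 16 sums of library and cell group, the members' own log2 levels correlated in pairs from r = -0.14 (*Hoxb5* with *Hoxb7*) to r = 0.99 (*Hoxb3* with *Hoxb5*), with a median of 0.73 over 21 pairs. The sums share libraries and depth, so these are descriptions. The genes whose levels were most like the members' mean were *Hoxaas3* (r = 0.96), *Sdhc* (0.95), *Hotairm1* (0.94), *Gm10073* (0.93), *Btf3* (0.93), *Vapa* (0.92), *Rps3* (0.92) and *Hoxc4* (0.92), of 8668 genes at 10 CPM or more on average. The least like were *Ctnna1* (-0.94), *Hoxc10* (-0.93), *Hoxd11* (-0.92) and *Hoxd9* (-0.92).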

How the data were processed

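Stromal cells of E12.5 SI and LI were profiled in 4 libraries on the 10x Chromium platform. Per the labels and the submitters' processing notes, the authors aligned reads to mm10 with Cell Ranger 3.1.0 and used Seurat 3, and the deposited values are raw UMI counts per gene and barcode, without normalization. The 3′ or 5′ kit of each library is not given in the sources used here. Intervals cover counting error only.

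Cells with at least 1000 genes and under 10% mitochondrial UMIs were kept. Doublets were scored with Scrublet in scanpy 1.11.5, and the highest scores were removed at 0.8% per 1000 cells, 183 to 348 cells per library, since the automatic threshold marked too few. Libraries were integrated in Seurat 5.3.0 (R 4.3.3) on 2000 variable genes less all *Hox* and list genes, with cell cycle scores regressed out, and clustered at resolution 0.3 on 30 components. Clusters were named from their markers among the leading genes, so names can differ from the study's.

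Raw counts were summed per library and group and tested with edgeR 4.0.16 (quasi-likelihood, TMM, filterByExpr, Benjamini-Hochberg over all genes tested, adjusted p under 0.05), with the library as a block between cell groups. The SE was taken as the fitted log2 fold divided by the root of the F statistic. For shares, cells were thinned to 3000 UMIs, and 95% intervals are Wilson's. DESeq2 1.42.0 served as an alternative. Scripts were tested on simulated data. Promoter windows came from RefSeq and positions from the GRCm38 gene annotation, matched by identifier.

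The members and lists were chosen with earlier results of these data known. The text names all 7 members, the other *Hoxb* genes, at most 4 called genes of each list with the smallest adjusted p in other mesenchyme, and the 8 genes most and 4 least correlated with the members' mean z-score of log2(CPM + 1). *Hoxb3os* and *Hoxb5os*, and the neural clusters, were added after the values were seen.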

Additional observations from a re-analysis of the deposited data

Results flagged for a closer look

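For 3 genes the SI over LI difference was called as differing between a cell group and other mesenchyme. The test was the interaction term of the edgeR fit with the library as a block. Of all genes, 12.46% were called in that term for neural-like, 5.73% for mesothelial-like and 0.78% for SMC-like cells. For *Hoxb4* the log2 fold change in neural-like cells minus that in other mesenchyme was -1.36 (SE 0.17, edgeR adjusted p = 0.00018), and the fold was 1.93 in mean CPM there against 4.33 in other mesenchyme. For *Hoxb3* in neural-like cells it was -0.63 (SE 0.19, edgeR adjusted p = 0.044), with folds of 1.80 and 2.39. It was -0.30 without SI replicate 1 (edgeR adjusted p = 0.35), and the call was also lost under DESeq2's Wald test, the stricter cell filter, clusters without markers of other classes and progenitors alone. For *Hoxb6* in mesothelial-like cells it was -1.04 (SE 0.30, edgeR adjusted p = 0.036), with folds of 4.07 and 7.96. It was 0.060 without LI replicate 2 (edgeR adjusted p = 0.99) and -0.83 without SI replicate 1, and the call was also lost under DESeq2's size factors, its Wald test and the stricter cell filter. In all 3 cases both SI libraries were above both LI libraries in each cell group. No outlier test was made, since each region has 2 libraries.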

How the results depend on the processing

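SI over LI log2 fold changes of the 7 genes stayed above 0 under all alternatives (0 of 342 values were below 0). In other mesenchyme, 104 of 105 alternative values kept their side of the threshold, and *Hoxb2* lost its call under DESeq2's Wald test. Counts of the 7 genes called moved as follows, and the cause was not tested. The settings by cluster, progenitors alone and libraries left out between cell groups were chosen after seeing the data. The settings by cluster include clusters without markers of other classes and the *Foxd1*-led cluster added. In mesothelial-like cells (6 called) DESeq2's Wald test called 3. In neural-like cells (2 called) it called 4, progenitors alone gave 1, with the *Hoxb8* call lost, and no filter on low counts gave 7. The count there also depended on single libraries. SMC-like cells against other mesenchyme (2 called) gave 1 to 2 with 1 library left out. The interaction for SMC-like cells (0 called) gave 1 with clusters without markers of other classes and 3 without the filter. That for mesothelial-like cells (1 called) gave 0 under the Wald test, DESeq2's size factors and the stricter cell filter, 2 with doublets kept, and 0 to 1 with 1 library left out. That for neural-like cells (2 called) gave 1 under the Wald test, clusters without other markers, progenitors alone and the stricter filter, 4 without the filter on counts, and 1 to 5 with 1 library left out.

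Some signs reversed. *Hoxb6* in neural-like cells over other mesenchyme (0.10, not called) was -1.34 with progenitors alone, a call in the opposite direction (edgeR adjusted p = 0.0040). *Hoxb8* became a call there too (-1.68), so that 7 genes were called instead of 5, beside 6194 of all 12592 genes tested in that fit. *Hoxb6* was also -0.013 under the Wald test and -0.27 to 0.24 with 1 library left out. With 1 library left out, *Hoxb6* in SMC-like cells over other mesenchyme ranged from -0.033 to 0.097, and *Hoxb2* and *Hoxb5* in mesothelial-like cells from -0.16 to 0.047 and from -0.29 to 0.0022. The interactions ranged from -0.10 to 0.036 (*Hoxb3*), -0.52 to 0.031 (*Hoxb5*) and -0.51 to 0.60 (*Hoxb6*) for SMC-like cells, and for *Hoxb6* from -1.49 to 0.060 for mesothelial-like and from -0.11 to 1.78 for neural-like cells.

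Over all genes, SI against LI called 543 in other mesenchyme, 129 in mesothelial-like, 183 in SMC-like and 35 in neural-like cells, and 1602, 420, 857 and 362 without the filter on low counts. Without that filter 48.2%, 49.0%, 50.5% and 54.7% of the called genes were higher in SI. Leaving out LI replicate 2 gave 2031, 1118, 1256 and 1473, and moved the share of called genes that were higher in SI from 29.5% to 58.6%, 43.4% to 63.1%, 28.4% to 66.8% and 34.3% to 56.5%. A replicate block by library number gave 1110, 739, 1145 and 408 genes, and all 7 members were called in each group. Of the genes called with this block, 39.5%, 57.8%, 53.1% and 50% were higher in SI. Deviations of same-numbered SI and LI libraries correlated at 0.42 in other mesenchyme, 0.28 in mesothelial-like, 0.46 in SMC-like and 0.42 in neural-like cells, with 2 pairs, so the numbers alone do not show pairing. DESeq2's Wald test called 775, 113, 299 and 103. The stricter cell filter gave 331 in other mesenchyme and 82 in mesothelial-like cells, and in neural-like cells 63 were called with doublets kept and 71 with sums thinned to equal totals. The Wald test called 1711 genes between SMC-like cells and other mesenchyme (2682), and 205 (773), 67 (106) and 877 (1701) in the interactions for mesothelial-like, SMC-like and neural-like cells. With 1 library left out these interactions called down to 372, 3 and 1035 genes and, for SMC-like cells, up to 438, and SMC-like cells against other mesenchyme 1294 to 2588. The interaction for SMC-like cells also called 36 under the stricter cell filter, 229 with clusters without markers of other classes and 524 without the filter on counts, and that for mesothelial-like cells 464 under the stricter cell filter. With 1 library left out SI against LI called 0 to 1473 genes in neural-like cells, 922 without LI replicate 1 in other mesenchyme and 409 without SI replicate 1 in SMC-like cells. With log2(CPM + 5), 8 of the 8 most like genes and 2 of the 4 least like were kept. Low counts limit *Hoxb1* and, in neural-like cells, *Hoxb7* and the LI values of *Hoxb6* and *Hoxb8*.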
